A study of Mus musculus with 6 samples.

Results

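Expression of 10 mouse genes of simple epithelia was followed in embryo heads that carried, or lacked, an inserted allele of Prdm15. They were chosen by name from the 24062 genes of the series, with earlier results of these data known. They are the claudin genes Cldn3, Cldn4, Cldn6 and Cldn7, the keratin genes Krt8, Krt18, Krt19 and Krt23, and Epcam and Lad1. All 10 passed the filter on low counts that left 15187 genes for testing. The heads came from C57BL/6 embryos at embryonic day 8.5, and the groups were mutant (Prdm15 tm1a-/-), heterozygous (Prdm15 tm1a+/-) and wild type (Prdm15 tm1a+/+), with 2 libraries each. The tm1a allele is a knockout-first insertion that all cells of an embryo carry, and no Cre or second allele is named for any group. RNA was polyA-selected from whole dissected heads, so a gene's level mixes all tissues in the dissection, and fewer cells of a type cannot be told apart from less RNA per cell. The labels do not say whether heads of 1 genotype shared a litter, so p-values cover only how far these libraries differ, which may be technical.

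A simple epithelium is a single sheet of cells sealed near its outer face by tight junctions and braced inside by keratin filaments. Claudins are the membrane proteins that form the tight junction strands, and the mixture of claudins sets which ions and solutes pass between cells. Keratin filaments are built from pairs of a type II and a type I keratin: Krt8 is the type II partner of simple epithelia, and Krt18 and Krt19 are its type I partners. Epcam is a surface adhesion protein of epithelial and pluripotent cells that binds claudins, including Cldn7, and Lad1 encodes ladinin, a filament-associated protein of epithelial cells. In the mouse embryo at this stage such genes are used by gut and visceral endoderm (the absorptive outer layer of the yolk sac), by surface ectoderm and by trophoblast.

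Reads assigned to genes numbered 29412227 to 40439234 per library. A pair of count files, one listed under mutant replicate 1 and one under wild-type replicate 2, carry the other library's title. Assigned by the title in the file name, all 6 files had their zeros at the same genes as the like-titled RPKM column (0 genes differed), whereas as attached 1646 genes differed in each of the 2 exchanged files. Values here follow the titles; under the listed assignment the quasi-likelihood test of edgeR called 0 genes in any comparison (318, 48 and 422 at an unadjusted p under 0.05 for mutant against wild type, heterozygous against wild type and mutant against heterozygous). Prdm15 itself stood at 4.16 and 5.04 RPKM (reads per kilobase of transcript and per library size) in mutant libraries, 4.48 and 5.01 RPKM in heterozygous libraries and 5.56 and 5.14 RPKM in wild-type libraries, and its log2 fold change of -0.21 (SE 0.12) in mutant against wild type did not pass (adjusted p = 0.221). It therefore does not check the genotype labels.

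**Figure D1:**
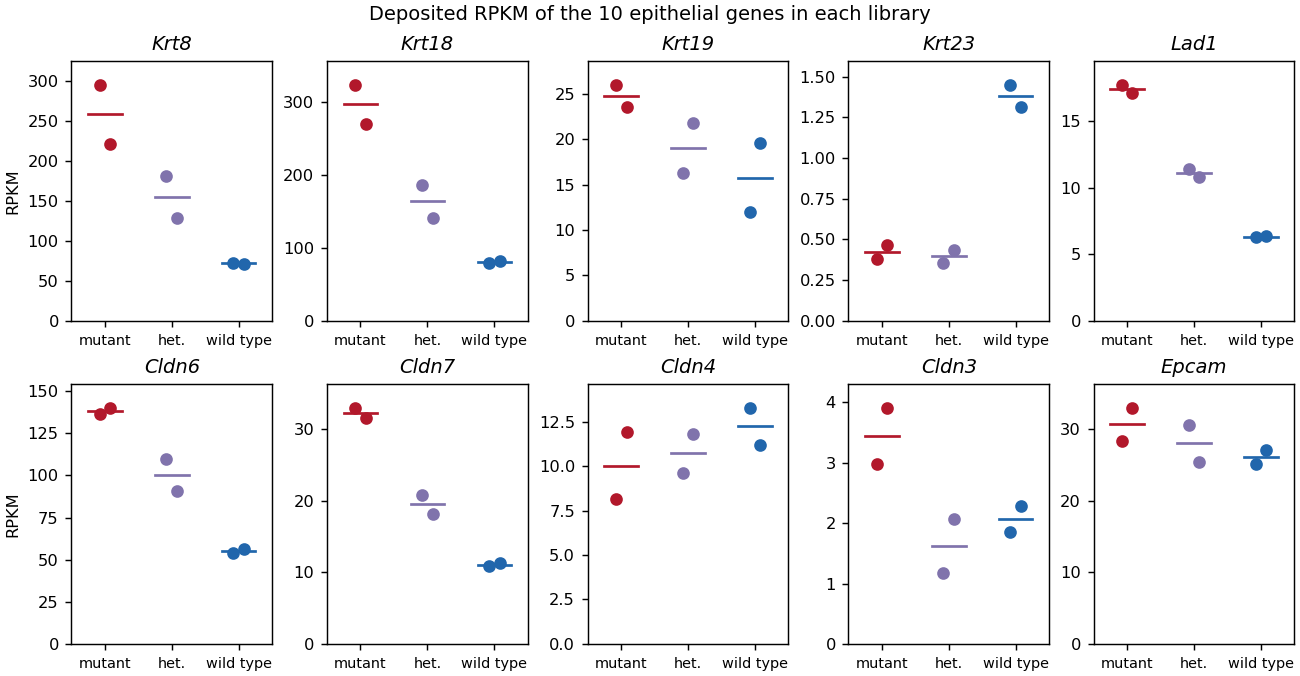
Deposited RPKM (vertical axes, each from 0) of the 10 genes in mutant, heterozygous and wild-type libraries; points are libraries and bars are group means (n = 2). For Krt8, Krt18, Lad1, Cldn6 and Cldn7 both mutant libraries lie above both heterozygous ones, which lie above both wild-type ones.

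The first comparison asks how these genes differ between mutant and wild-type heads. Krt8, Krt18, Cldn6, Cldn7 and Lad1 rose in mutant heads by 2.53-fold to 3.69-fold, and Krt23 fell. Cldn3, Cldn4, Epcam and Krt19 did not pass the test. Thus 5 of 10 genes rose and 1 fell at an adjusted p under 0.05 in edgeR's quasi-likelihood test over all genes, where 30.6% of all genes tested passed (17.1% higher and 13.6% lower). The median log2 fold change was 1.04 over the 10 genes and -0.02 over all genes tested. Because the 10 genes were chosen with earlier results known, such counts and medians do not test the list, here or in the later comparisons.

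Krt8 and Krt18, the filament pair of simple epithelia, were the most abundant of the 10 genes in every group. Krt8 stood at 295.5 and 221.3 RPKM in mutant libraries, 180.7 and 128.5 RPKM in heterozygous libraries and 72.3 and 71.5 RPKM in wild-type libraries. Krt18 stood at 323.7 and 270.3 RPKM in mutant libraries, 186.8 and 140.5 RPKM in heterozygous libraries and 79.5 and 82.7 RPKM in wild-type libraries. For both genes the 3 genotypes did not overlap, the mutant libraries were highest, and the wild-type libraries lay closest together. On the log2 scale Krt8 rose by 1.85 (SE 0.20, adjusted p = 0.00277) and Krt18 by 1.88 (SE 0.15, adjusted p = 0.0012) in mutant over wild-type heads, by edgeR's quasi-likelihood test. Ranked by RPKM among all genes, Krt18 lay above 99.2% and 99.1% of them in mutant libraries and above 96.4% and 96.5% in wild-type libraries.

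The 2 keratins kept a near-constant ratio while their levels changed. Krt8 RPKM divided by Krt18 RPKM was 0.913 and 0.819 in mutant libraries, 0.967 and 0.914 in heterozygous libraries and 0.91 and 0.865 in wild-type libraries. The ranges of mutant and wild-type ratios overlap. The genes are neighbours on chromosome 15 of GRCm38, Krt8 at 101996698 to 102004482 on the minus strand and Krt18 at 102028180 to 102032027 on the plus strand, with 23698 bases between their divergent starts. Krt8 overlaps the noncoding gene Gm36026 on the other strand, and the annotation also holds a processed pseudogene of Krt8. Whether the counting used strand is not given in the sources used here. Reads of such overlaps therefore cannot be told apart.

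Promoter windows of the keratin pair and of Cldn6, the leading claudin, are printed with that of Epcam, a member that did not pass, because these genes differ in how they moved. Each runs from 250 bases before to 50 bases after the RefSeq transcription start (GRCm38.p6), 5′ to 3′ on the gene's strand. The capitals mark matches, on either strand, to the GC box GGGCGG bound by Sp and Klf factors, the E2-box CAGGTG bound by the epithelial repressors Snail and Zeb, the grainyhead motif AACCNGTT, the Tfap2 motif GCCNNNGGC and the TATA motif TATAAA.
Krt8, chr15:102004293-102004592, minus strand: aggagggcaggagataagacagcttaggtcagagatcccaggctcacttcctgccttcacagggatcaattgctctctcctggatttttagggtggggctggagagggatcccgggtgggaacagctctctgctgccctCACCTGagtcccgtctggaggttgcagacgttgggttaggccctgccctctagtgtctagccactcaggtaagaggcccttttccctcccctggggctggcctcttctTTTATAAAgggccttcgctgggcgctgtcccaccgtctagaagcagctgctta
Krt18, chr15:102027966-102028265, plus strand: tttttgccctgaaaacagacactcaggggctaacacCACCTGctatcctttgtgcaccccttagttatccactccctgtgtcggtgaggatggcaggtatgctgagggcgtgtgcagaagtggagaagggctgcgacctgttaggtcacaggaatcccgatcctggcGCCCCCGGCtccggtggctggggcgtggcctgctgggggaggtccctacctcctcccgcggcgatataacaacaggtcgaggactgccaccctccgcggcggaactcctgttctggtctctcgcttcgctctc
Cldn6, chr17:23679115-23679414, plus strand: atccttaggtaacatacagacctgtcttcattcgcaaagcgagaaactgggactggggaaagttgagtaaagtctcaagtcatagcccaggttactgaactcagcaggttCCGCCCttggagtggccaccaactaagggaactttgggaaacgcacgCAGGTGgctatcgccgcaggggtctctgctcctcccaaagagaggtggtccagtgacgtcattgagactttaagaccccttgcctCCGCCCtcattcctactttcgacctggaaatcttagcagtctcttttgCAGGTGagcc
Epcam, chr17:87635729-87636028, plus strand: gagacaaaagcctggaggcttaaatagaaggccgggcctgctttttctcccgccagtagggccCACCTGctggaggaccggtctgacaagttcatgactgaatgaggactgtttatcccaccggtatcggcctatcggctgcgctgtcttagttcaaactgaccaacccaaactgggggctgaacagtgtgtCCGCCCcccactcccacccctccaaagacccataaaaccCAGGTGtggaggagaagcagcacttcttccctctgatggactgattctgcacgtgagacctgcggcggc
In these windows Krt8 held 1 E2-box and a TATA motif matched on both strands at overlapping letters, Krt18 held 1 E2-box and 1 Tfap2 motif, Cldn6 held 2 GC boxes and 2 E2-boxes, and Epcam held 1 GC box and 2 E2-boxes. The table gave 10 windows for 9 of the 10 genes, Krt19 having none there and Cldn7 having 2. The E2-box was found in 8 of the 10 windows, against 20.2% of the 32851 windows of all genes. The GC box was found in 5, against 35.7%, the Tfap2 motif in 2, against 16.6%, and the TATA motif in 1, against 13.6%. The grainyhead motif was found in 0, against 2.09%. The E2-box was present in genes that rose (Krt8, Krt18, Cldn6, Cldn7), in one that fell (Krt23) and in ones that did not pass (Cldn3, Cldn4, Epcam), and was not among the letters of the Lad1 window.

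The other 2 keratins were less abundant. Krt19, a type I keratin of simple epithelia at 100140810 to 100148665 on chromosome 11, stood at 26.0 and 23.5 RPKM in mutant libraries, 16.2 and 21.8 RPKM in heterozygous libraries and 11.9 and 19.6 RPKM in wild-type libraries. Both mutant libraries were above the other 4, while heterozygous and wild-type libraries overlapped. Its log2 fold change in mutant against wild-type heads was 0.66 (SE 0.26) and did not pass (adjusted p = 0.101, edgeR quasi-likelihood test). The call depends on the test and on wild-type replicate 2. The DESeq2 Wald test on all 6 libraries called Krt19 (0.67, adjusted p = 0.0378). Krt19 was also called by edgeR with libraries scaled to 11 neural progenitor genes (1.45, adjusted p = 0.003). Of these 11 genes 9 were themselves lower in mutant against wild-type heads, and the scaling moved the median of all genes by 0.79. Relative to that shift Krt19 stood at 0.66, as in the main fit. Without wild-type replicate 2 the edgeR value was 1.05 and passed (adjusted p = 0.0221), and without both libraries with exchanged titles it was 0.98 (adjusted p = 0.0379). That library also held the highest summed level of the 6 decidua and uterus markers, 316 CPM (a library's counts scaled to a common total) against 6.63 CPM in wild-type replicate 1, and its part in the Krt19 level was not tested.

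Krt23, an unusual type I keratin at 99477974 to 99493137 on the same chromosome, was the rarest of the 10 in every group. It stood at 0.378 and 0.465 RPKM in mutant libraries (22 and 21 reads), 0.357 and 0.435 RPKM in heterozygous libraries (17 and 20 reads) and 1.45 and 1.31 RPKM in wild-type libraries (92 and 71 reads). Mutant and heterozygous libraries overlapped, and the wild-type ones were higher than all 4. It fell by 1.71 on the log2 scale in mutant against wild-type heads (SE 0.30, adjusted p = 0.0108) and by 1.80 in heterozygous against wild-type heads (SE 0.30, adjusted p = 0.0277). On leaving out single libraries it passed in 4 of 6 fits for mutant against wild type (adjusted p = 0.0726 without mutant replicate 1 and 0.0541 without wild-type replicate 1; 0.104 without both libraries with exchanged titles) and in 0 of 6 fits for heterozygous against wild type (adjusted p = 0.0549 to 0.15).

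**Figure D2:**
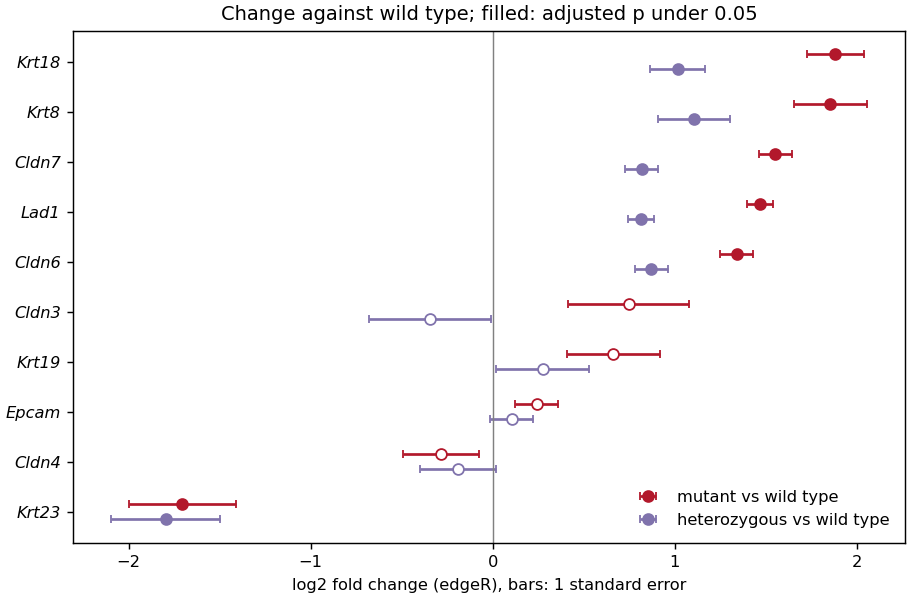
log2 fold change (horizontal axis) of each gene in mutant and heterozygous heads over wild-type heads, with bars of 1 standard error; filled points passed at an adjusted p under 0.05. Krt18, Krt8, Cldn7, Lad1 and Cldn6 lie to the right in both comparisons, the mutant value being 1.34 to 1.88 and the heterozygous value 0.82 to 1.11.

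Among the claudins, Cldn6 and Cldn7 rose and Cldn3 and Cldn4 did not pass. Cldn6, a claudin of embryonic epithelia on chromosome 17 (23679249 to 23682446), stood at 136.6 and 140.2 RPKM in mutant libraries, 109.9 and 90.9 RPKM in heterozygous libraries and 53.8 and 56.2 RPKM in wild-type libraries. Cldn7, the claudin that binds Epcam, on chromosome 11 (69964779 to 69967885), stood at 33.0 and 31.6 RPKM in mutant libraries, 20.8 and 18.2 RPKM in heterozygous libraries and 10.9 and 11.3 RPKM in wild-type libraries. Neither gene had overlapping genotypes. Cldn6 rose by 1.34 on the log2 scale (SE 0.09, adjusted p = 0.000768) and Cldn7 by 1.55 (SE 0.09, adjusted p = 0.000548) in mutant over wild-type heads, both from edgeR's quasi-likelihood test.

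Cldn3 and Cldn4, 2 claudins that lie 39280 bases apart on chromosome 5, were low by comparison. Cldn4 (134945119 to 134946934) stood at 8.15 and 11.9 RPKM in mutant libraries, 9.6 and 11.8 RPKM in heterozygous libraries and 13.3 and 11.2 RPKM in wild-type libraries, and the groups overlapped. Its log2 fold change in mutant against wild-type heads was -0.28 (SE 0.21, adjusted p = 0.344), and this sign turned (0.50, adjusted p = 0.0514) with the neural progenitor scaling; relative to its shift of all genes Cldn4 stood at -0.29. Cldn3 (134986214 to 134987472) stood at 2.97 and 3.91 RPKM in mutant libraries, 1.18 and 2.07 RPKM in heterozygous libraries and 1.85 and 2.28 RPKM in wild-type libraries. Only its mutant libraries stood apart from both other groups, on 46 to 145 reads per library, and its value of 0.75 (SE 0.33, adjusted p = 0.14) did not pass. Cldn3 overlaps the antisense gene Wbscr25.

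Epcam, on chromosome 17 (87635979 to 87651129), did not pass in mutant against wild-type heads. It stood at 28.3 and 32.9 RPKM in mutant libraries, 30.5 and 25.4 RPKM in heterozygous libraries and 25.1 and 27.1 RPKM in wild-type libraries, and mutant libraries lay just above wild-type ones while heterozygous libraries overlapped both. On 1565 to 2206 reads per library its log2 fold change in mutant against wild-type heads was 0.24 (SE 0.12, adjusted p = 0.173). With the neural progenitor scaling Epcam passed as higher (1.03, adjusted p = 0.000269), which is 0.24 above the 0.79 by which all genes shifted. Lad1, on chromosome 1 (135818598 to 135833342), had the smallest standard error of the 10. It stood at 17.7 and 17.1 RPKM in mutant libraries, 11.4 and 10.8 RPKM in heterozygous libraries and 6.28 and 6.36 RPKM in wild-type libraries. The groups were far apart relative to that spread, and it rose by 1.47 on the log2 scale in mutant against wild-type heads (SE 0.07, adjusted p = 0.000328).

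The authors' deposited table, whose score is a likelihood ratio, gives mutant against wild-type log2 fold changes of 1.85 for Krt8, 1.87 for Krt18, 1.33 for Cldn6, 1.54 for Cldn7 and 1.46 for Lad1. In the authors' deposited table Krt19 has a false discovery rate of 0.0386 and Krt23 one of 0.0199, while Epcam (0.416), Cldn3 (0.403) and Cldn4 (0.573) lie above 0.05. Krt19 is thus past 0.05 in that table and not in the quasi-likelihood test. It was not called either by edgeR's likelihood ratio test run here (0.66, adjusted p = 0.063).

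In heterozygous against wild-type heads, which share the wild-type libraries with the first comparison, Krt8, Krt18, Cldn6, Cldn7 and Lad1 rose by 1.76-fold to 2.15-fold and Krt23 fell. That is 6 of 10 genes where 6.56% of all genes tested passed (6.03% higher and 0.533% lower). Krt8 rose by 1.11 (SE 0.20, adjusted p = 0.0321) and Krt18 by 1.02 (SE 0.15, adjusted p = 0.0195) on the log2 scale. The value was 0.87 (SE 0.09, adjusted p = 0.00684) for Cldn6, 0.82 (SE 0.09, adjusted p = 0.00806) for Cldn7 and 0.82 (SE 0.07, adjusted p = 0.00408) for Lad1. Cldn6, Cldn7 and Lad1 passed in 6 of 6 fits that left out 1 library. Krt8 and Krt18 each passed in some of these fits and not in others. Without wild-type replicate 1 or 2 their values hardly moved, to 1.116 and 1.096 for Krt8 and 0.989 and 1.042 for Krt18. Calls lost there do not show that the rise rests on a single library, because the wild-type group then holds 1 library. The values moved more with the heterozygous libraries. Without heterozygous replicate 1 Krt8 was at 0.846 and Krt18 at 0.802, and without heterozygous replicate 2 they were at 1.332 and 1.207. The 4 genes that did not pass lay between -0.34 (Cldn3) and 0.27 (Krt19), and Epcam was at 0.10 (SE 0.12, adjusted p = 0.629).

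The direct comparison of mutant with heterozygous heads called 2 of the 10 genes where 0.435% of all genes tested passed (0.0724% higher and 0.362% lower). Lad1 rose by 0.65 (SE 0.07, adjusted p = 0.0375) and Cldn7 by 0.73 (SE 0.09, adjusted p = 0.04998) on the log2 scale, in edgeR's quasi-likelihood test. Both calls were lost in each of the 6 fits that left out 1 library, with adjusted p between 0.0517 and 0.223 for Lad1 and between 0.0539 and 0.226 for Cldn7. Krt18 (0.87, SE 0.15, adjusted p = 0.0785), Krt8 (0.75, SE 0.19, adjusted p = 0.124) and Cldn6 (0.47, SE 0.09, adjusted p = 0.0868) did not pass here, although both mutant libraries stood above both heterozygous ones. Cldn6 passed without heterozygous replicate 1 (0.60, adjusted p = 0.0471). Mutant and heterozygous libraries did not overlap by RPKM for 7 of the 10 genes. By CPM as scaled in edgeR they did not overlap for 54.0% of all genes tested. With the same 2 measures, mutant and wild-type libraries did not overlap for 9 of the 10 genes and 71.0% of all genes tested. For heterozygous and wild-type libraries this held for 6 of the 10 genes and 56.2% of all genes tested. Libraries in the order mutant, heterozygous, wild type from high to low, with no overlap, were found for 5 of the 10 genes and for 13.3% of all genes tested. Krt23 was at 0.09 (SE 0.31, adjusted p = 0.907), its mutant and heterozygous levels being 0.421 ± 0.0612 and 0.396 ± 0.0556 RPKM (SD, n = 2 each).

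**Figure D3:**
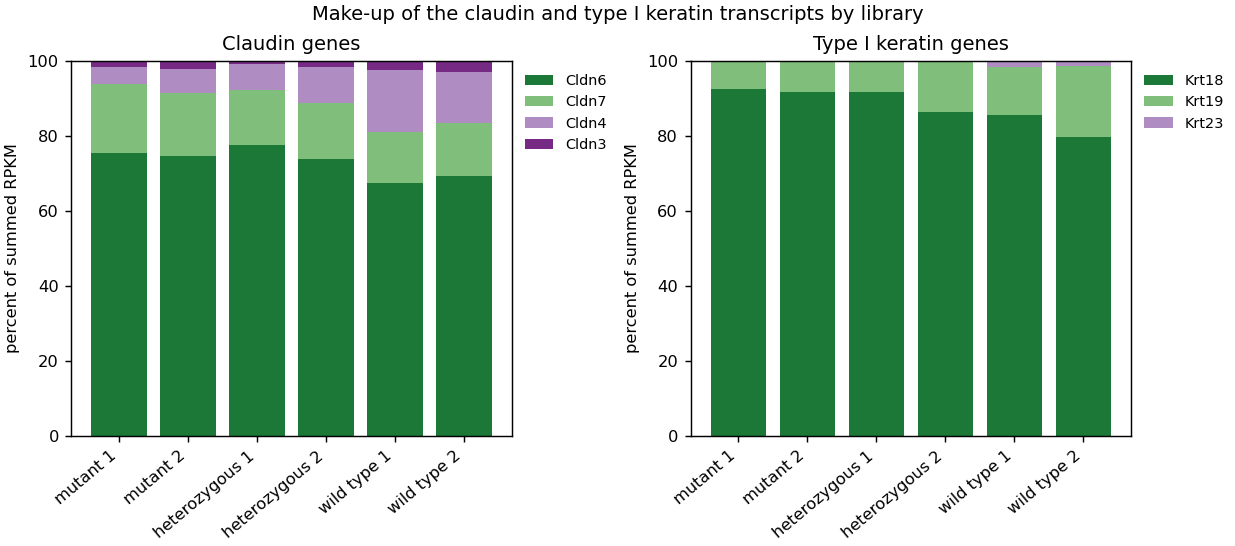
Share of each gene (vertical axis, percent) in the summed RPKM of the 4 claudin genes and of the 3 type I keratin genes, one bar per library. Cldn4 makes up 4.51% and 6.35% of the claudin sum in mutant libraries and 16.6% and 13.8% in wild-type libraries.

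The mixture of the 4 claudin transcripts followed here differed between genotypes as well as their amount. Other claudins stand outside this sum, such as Cldn2 and Cldn25, the latter at 21.22 to 25.7 RPKM over the 6 libraries. The 4 claudin genes summed to 180.7 and 187.6 RPKM in mutant libraries, 141.4 and 123.0 RPKM in heterozygous libraries and 79.8 and 81.0 RPKM in wild-type libraries. Cldn6 was the main claudin of the 4 in all of them, at 75.6% and 74.7% of the sum in mutant libraries, 77.7% and 73.9% in heterozygous libraries and 67.4% and 69.4% in wild-type libraries. Cldn4 held 4.51% and 6.35% of it in mutant libraries, 6.79% and 9.62% in heterozygous libraries and 16.6% and 13.8% in wild-type libraries, without overlap between groups. Cldn7 held 18.3% and 16.8% of the claudin sum in mutant libraries, 14.7% and 14.8% in heterozygous libraries and 13.6% and 13.9% in wild-type libraries. Among the type I keratins, Krt18 made up 92.5% and 91.8% in mutant libraries, 91.8% and 86.4% in heterozygous libraries and 85.6% and 79.8% in wild-type libraries. Krt19 made up nearly all of the rest, at 7.43% and 7.99% in mutant libraries, 7.98% and 13.4% in heterozygous libraries and 12.9% and 18.9% in wild-type libraries, and the heterozygous range overlapped both others. These shares are descriptions and follow from the same values as the fold changes.

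By level, the order of the genes was Krt18, Krt8 and Cldn6 in each genotype. In mutant libraries Cldn7 (32.3 ± 0.984 RPKM) and Epcam (30.6 ± 3.28 RPKM) came next and did not differ beyond their spread. They were followed by Krt19 (24.8 ± 1.76 RPKM), Lad1 (17.4 ± 0.462 RPKM), Cldn4 (10.03 ± 2.67 RPKM), Cldn3 (3.44 ± 0.662 RPKM) and Krt23 (SD, n = 2 each). In wild-type libraries Epcam (26.1 ± 1.42 RPKM) came after Cldn6, and Krt19 (15.8 ± 5.39 RPKM), Cldn4 (12.3 ± 1.46 RPKM) and Cldn7 (11.1 ± 0.273 RPKM) followed, with ranges that overlap between neighbours. Krt18 and Krt8 overlapped in mutant and in heterozygous libraries and not in wild-type ones.

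**Figure D4:**
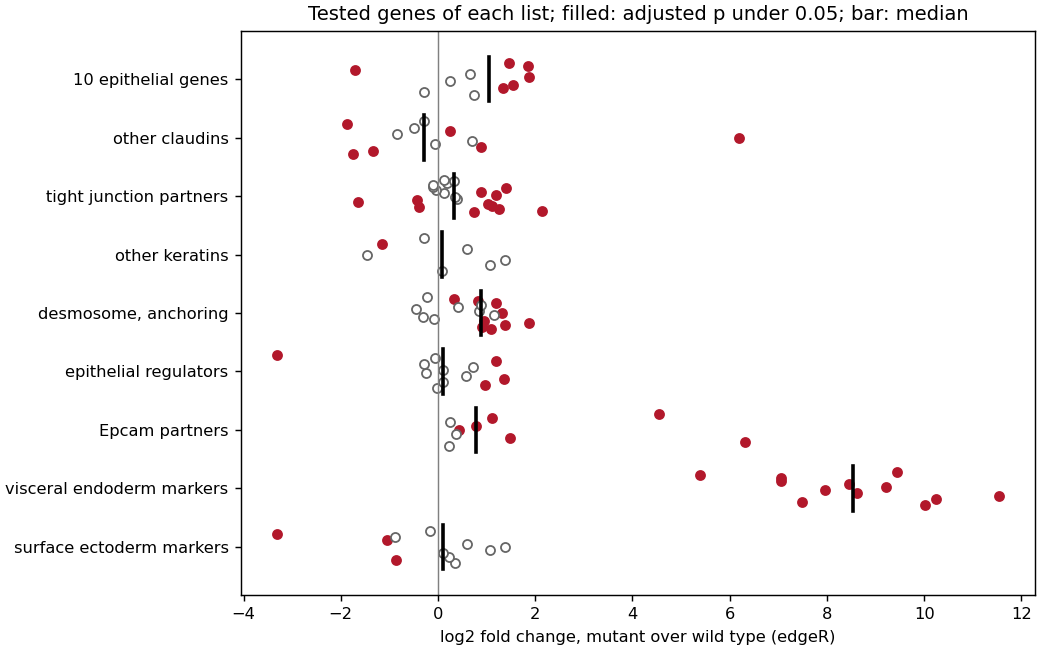
log2 fold change in mutant over wild-type heads (horizontal axis) of the tested genes of each list; filled points passed at an adjusted p under 0.05 and bars are medians. The 10 epithelial genes have a median of 1.04, desmosome and anchoring genes one of 0.88 and visceral endoderm markers one of 8.54.

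Genes that work with these 10 were read from the same fit. Over all genes tested, 17.1% were higher and 13.6% lower in mutant against wild-type heads. Of 17 other claudins 11 were tested, and in mutant heads 3 rose and 3 fell (median log2 fold change -0.30). Cldn2, a claudin that forms a cation and water pore, rose the most of them: it stood at 23.0 and 19.5 RPKM in mutant libraries, 13.1 and 9.73 RPKM in heterozygous libraries and 0.277 and 0.307 RPKM in wild-type libraries (log2 fold change 6.19, SE 0.22, adjusted p = 0.000247). Cldn1, the barrier claudin of stratified epithelia such as the epidermis, fell by 1.75 (SE 0.27, adjusted p = 0.00804), Cldn8 fell by 1.87 (SE 0.51, adjusted p = 0.039), and Cldn25 rose by 0.24 (SE 0.06, adjusted p = 0.0339). Of 20 tight junction partners 8 rose, 3 fell and 9 did not pass (median 0.34). Cgnl1, which links junctions to the actin belt, rose by 2.14 (SE 0.14), the junctional adhesion molecule F11r by 1.11 (SE 0.13) and the scaffold gene Inadl by 1.03 (SE 0.13), while Jam2 fell by 1.65 (SE 0.18).

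Of 17 other keratins 7 passed the filter, 0 rose and 1 fell. That one, Krt7, a type II keratin of simple and glandular epithelia and trophoblast, stood at 4.95 and 5.95 RPKM in mutant libraries, 5.66 and 7.73 RPKM in heterozygous libraries and 8.69 and 15.7 RPKM in wild-type libraries (-1.15, SE 0.31, adjusted p = 0.039). Its highest value was in wild-type replicate 2. The keratins of stratified epithelia Krt14 (1.08, SE 0.52) and Krt15 (1.38, SE 0.50), and Krt20 of intestinal epithelium (-1.47, SE 0.44), did not pass, at levels under 1 RPKM in all libraries.

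Of 17 tested desmosome, E-cadherin and anchoring genes 9 rose and 0 fell in mutant heads (median 0.88). Desmosomes are the spot junctions to which keratin filaments attach. The desmosomal cadherin genes Dsg2 and Dsc2 rose by 1.87 (SE 0.11) and 1.38 (SE 0.11), and the plaque genes Dsp (desmoplakin) and Pkp2 (plakophilin) by 0.94 (SE 0.06) and 1.20 (SE 0.16). Of 9 genes listed with Epcam, which include membrane proteases and their inhibitors, 6 rose and 0 fell (median 0.79). Cdx2 stands in this list and among the 6. Tmprss2 stood at 36.2 and 35.7 RPKM in mutant libraries against 1.61 and 1.5 RPKM in wild-type libraries, and the protease gene Prss8 rose by 1.48 (SE 0.15) and its inhibitor gene Spint2 by 0.79 (SE 0.12). Cdx2, a transcription factor gene of caudal tissues and trophoblast, was at 4.72 and 15.6 RPKM in mutant libraries and 0.192 and 0.0531 RPKM in wild-type libraries.

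Of 12 epithelial regulators 3 rose, 1 fell and 8 did not pass (median 0.11), near the 30.6% of all genes tested that passed. The splicing factor gene Esrp2 rose by 1.35 (SE 0.17), and the transcription factor genes Ovol1 and Elf3 by 1.20 (SE 0.26) and 0.96 (SE 0.24). Trp63, the master regulator of stratified epithelia, fell by 3.31 (SE 0.72, adjusted p = 0.0205) and stood at 0.0445 and 0.0763 RPKM in mutant libraries against 0.517 and 0.681 RPKM in wild-type libraries. In heterozygous against wild-type heads 4 of 20 tight junction partners and 4 of 17 desmosome and anchoring genes rose. So did 2 of 9 Epcam partners and 1 of 12 regulators, where 6.03% of all genes tested were higher. Cldn2 rose among the other claudins (5.29, SE 0.21, adjusted p = 0.000597), while Jam2 fell by 0.86 (SE 0.18, adjusted p = 0.0468). In mutant against heterozygous heads 0 genes of these lists passed.

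**Figure D5:**
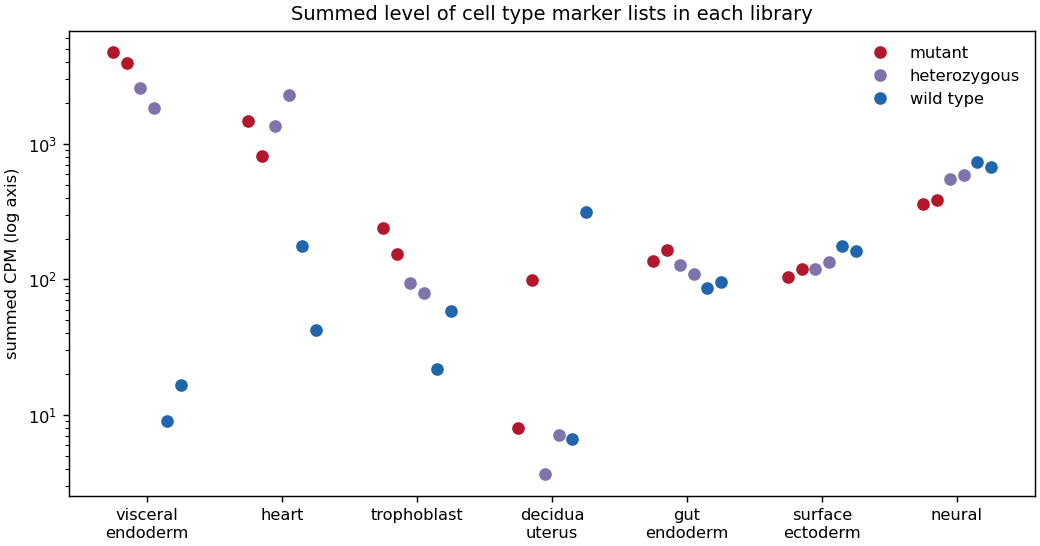
Summed CPM (vertical axis, logarithmic) of marker lists of tissues that a head dissection can hold, one point per library. Visceral endoderm markers sum to 4720 and 3950 CPM in mutant, 2580 and 1850 CPM in heterozygous and 9.08 and 16.6 CPM in wild-type libraries.

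Marker genes of other tissues were read in the same libraries. Over all genes tested 17.1% were higher and 13.6% lower in mutant against wild type, and 6.03% higher in heterozygous against wild type. The 12 visceral endoderm markers, led by Apob, Cubn and Apoa1, summed to 4720 and 3950 CPM in mutant libraries, 2580 and 1850 CPM in heterozygous libraries and 9.08 and 16.6 CPM in wild-type libraries, and 12 of 12 rose in both comparisons with wild type. This is the same order of genotypes as that of Krt8, Krt18, Cldn6, Cldn7 and Lad1, and the part of this tissue in those levels was not tested. The 10 gut endoderm markers summed to 136 and 164 CPM in mutant libraries, 127 and 109 CPM in heterozygous libraries and 85.9 and 95.7 CPM in wild-type libraries, with 4 of 10 higher and 2 lower in mutant against wild type. Cpn1 alone gave 36.0 and 45.2 CPM in mutant libraries and 6.75 and 3.17 CPM in wild-type ones. Nkx2-1 was among the 2 that were lower, with a log2 fold change of -4.175 (SE 0.77). The 11 surface ectoderm markers summed to 105 and 120 CPM in mutant libraries, 119 and 135 CPM in heterozygous libraries and 176 and 163 CPM in wild-type libraries, with 0 higher and 3 lower in mutant against wild type (Tfap2a at -1.04, Dlx5 at -0.86 and Trp63). The median log2 fold change of these 11 markers was 0.11. Tfap2a alone gave 35.5 and 26.9 CPM in mutant libraries and 69.5 and 64.4 CPM in wild-type ones. Krt5, Krt14, Krt15, Grhl3 and Trp63 stand in this list as well as in lists above.

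Trophoblast markers summed to 240 and 153 CPM in mutant libraries, 94.4 and 78.8 CPM in heterozygous libraries and 21.8 and 58.4 CPM in wild-type libraries, most of it from Hand1, which heart and other mesoderm also express, except in wild-type replicate 2, where Hand1 gave 24.7 CPM. The decidua and uterus markers were high in 1 mutant library (7.99 and 99.8 CPM) and 1 wild-type library (6.63 and 316 CPM) and low in both heterozygous ones (3.65 and 7.1 CPM). Notochord and node markers were at 33.8 and 67 CPM in mutant libraries, 27.5 and 33 CPM in heterozygous libraries and 31.1 and 34.9 CPM in wild-type libraries. Heart markers summed to 1460 and 813 CPM in mutant libraries, 1360 and 2270 CPM in heterozygous libraries and 175 and 42.6 CPM in wild-type libraries. Mesenchyme markers summed to 2800 and 2740 CPM in mutant libraries, 2590 and 2780 CPM in heterozygous libraries and 2100 and 2210 CPM in wild-type libraries. Fn1 gave most of each sum, with 1830 and 1800 CPM in mutant and 1190 and 1220 CPM in wild-type libraries. Of the 12 mesenchyme markers 5 were higher and 3 lower in mutant against wild type. The 9 neural markers, which define the labelled tissue, were present in all libraries, at 362 and 382 CPM in mutant, 553 and 593 CPM in heterozygous and 733 and 674 CPM in wild-type libraries, and 7 of 9 fell in mutant against wild type.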

How the data were processed

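PolyA-selected RNA of embryo heads was sequenced as stranded paired-end libraries, per the labels' protocols, and TopHat2 2.0.11, HTSeq 0.6.1p2 and edgeR 3.8.6 with the build mm10 are named in the submitters' processing notes. The authors deposited raw counts per gene symbol for each library, whose summary lines (8.93% to 10.5% of read pairs in no feature) stayed out of library sizes and tests. RPKM values, 1 column per sample title, were also deposited by the authors, with log2 fold changes, p-values with false discovery rates and a likelihood ratio score; the RPKM are scaled by library, and their annotation is not given in the sources used here.

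Count files were assigned by the title in their name. The test was edgeR 4.0.16 under R 4.3.3 (TMM, filterByExpr with the genotype, glmQLFit on the 6 libraries together, which leaves 3 residual degrees of freedom, glmQLFTest, Benjamini-Hochberg adjustment over 15187 genes, threshold 0.05). Adjusted p-values in the text are from this test unless another is named, and SEs were taken as the size of the fitted change over the root of its F statistic. Alternatives used DESeq2 1.42.0 and limma 3.58.1. Marker sums are CPM of library totals, where 3 reads equal 0.0742 to 0.102 CPM. The fit was tested on simulated counts, where it recovered 54% of 100 genes changed 2-fold and 82% of 100 changed 4-fold. Of 150 genes called there, 14 were false. GENCODE M21 (GRCm38, which mm10 also denotes) gave the positions, and promoters came from RefSeq.

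Members, gene lists and tests were chosen with earlier results of these data known. Named genes are the 10 members, and up to 4 genes of each related list with the smallest p in mutant against wild type. The deposited 3-genotype comparison was not used here.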

Additional observations from a re-analysis of the deposited data

How the results depend on the processing

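Of 480 results of single members under other settings, 24 changed sign, 13 of them with the count files as attached. The other 11 concern results that did not pass. With the files as attached all counts of called genes and members were 0, and the log2 fold changes that turned were, in mutant against wild type, Cldn4 (0.11), Cldn7 (-0.039), Lad1 (-0.041), Krt8 (-0.34) and Krt18 (-0.20). In heterozygous against wild type they were Cldn7 (-0.18), Lad1 (-0.12), Krt8 (-0.26), Krt18 (-0.31) and Krt19 (-0.0032), and in mutant against heterozygous Cldn4 (0.11), Cldn6 (-0.031) and Krt8 (-0.077). Scaled to the neural progenitor genes, which moved the median of all genes by 0.79, 0.28 and 0.51 in the 3 comparisons, Cldn4 was at 0.50, 0.093 and 0.40. The genes called there were 11587 (11263 higher, 324 lower, in place of 2594 and 2060), 4185 and 9188, and 8 members were called in mutant against heterozygous.

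Genes called in heterozygous against wild type numbered 997 by the quasi-likelihood test, 1890 by DESeq2 and 1579 by the likelihood ratio test. In mutant against heterozygous they numbered 66, against 1313 by DESeq2, 801 by the likelihood ratio test, 182 without a filter and 106 with only the groups compared. Members called there were 5 by DESeq2, 5 by the likelihood ratio test and 1 with only the groups compared. Leaving out both libraries with exchanged titles, chosen after seeing the data, called 2046 genes in mutant against wild type, 180 genes and 0 members in mutant against heterozygous, with Cldn4 at 0.16.

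Leaving out 1 library gave 1997 to 4265 genes and 5 to 7 members in mutant against wild type, 313 to 748 genes and 3 to 5 members in heterozygous against wild type, and 11 to 81 genes and 0 to 1 members in mutant against heterozygous. A lone library is then assumed to vary like the other groups. Over these fits the heterozygous against wild-type values were -0.81 to 0.015 for Cldn3, -0.026 to 0.23 for Epcam and -0.039 to 0.67 for Krt19, and the mutant against heterozygous values -0.40 to 0.16 for Cldn4 and -0.067 to 0.24 for Krt23. Where no other cause is given, the cause was not tested. No paired analysis was possible because the labels give no number shared between genotypes. Precision is limited by 2 libraries a group and, for Krt23 and Cldn3, by their reads.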

Other observations

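Across the 6 libraries, which all points share, Krt8, Krt18, Cldn6, Cldn7 and Lad1 varied together, with Pearson's r of log2 CPM between 0.98 and 0.998 for each pair. Epcam had r between 0.685 and 0.75 with these 5, Krt19 between 0.684 and 0.751, and Cldn4 between -0.702 and -0.576. Krt23 had r between -0.918 and -0.86 with the same 5, and Cldn3 between 0.379 and 0.517. These values describe 6 libraries of 3 genotypes and carry no test. The genes outside the list with the highest r to the mean standardized level of the 10 were Ifnar2 (0.999), an interferon receptor subunit gene, Cycs (0.996), the gene of cytochrome c, Oprd1 (0.994), Ocln (0.993), the gene of the tight junction protein occludin, and Cox7a2 (0.993). That mean includes Krt23 and Cldn4, whose r with the 5 genes above was negative, so it is not the profile of those 5. The highest, Ifnar2, stood at 5.91 and 6.3 RPKM in mutant libraries and 4.82 and 4.96 RPKM in wild-type libraries. Of 13206 genes compared, 215 had an r of at least 0.95. Ocln stood at 3.9 and 4.52 RPKM in mutant libraries, 2.98 and 3.01 RPKM in heterozygous libraries and 2.13 and 2.44 RPKM in wild-type libraries.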
